A study of Mus musculus with 24 samples.

Results

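Described here are the 6 genes that carry a trypsinogen symbol, Prss1, Prss2, Prss3, Try4, Try5 and Try10, and the trypsin inhibitor gene Spink1, in whole pancreas of the mouse. The genes were chosen by symbol, through the Ensembl identifiers of the deposited gene table. The choice was made with earlier results of these data known. All 7 were found among the 51912 genes of the table, and all 7 were among the 14000 genes that passed the filter on low counts. RNA was sequenced from 24 C57Bl/6J mice, an inbred laboratory strain, in 8 groups of 3 that the labels define by condition (normal circadian or disrupted), sex and time. Early mice of both sexes and both conditions were taken on day 1 at a zeitgeber time of 8 h, late females on day 8 at 176 h, and late males on day 9 at 200 h. Zeitgeber time counts hours from lights on, so every mouse was taken at the same clock hour. No mouse carries a transgene or a mutation by its labels, and neither the age of the mice nor the way the rhythm was disrupted is stated in the sources used here. At the late time the sexes also differ in the day of sampling, so sex and day cannot be told apart there.

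Trypsinogens are the inactive precursors of trypsin, a serine protease that digests protein in the gut. Acinar cells of the pancreas make them, store them in zymogen granules and secrete them, and enteropeptidase in the duodenum cuts them into active trypsin, which then activates the other digestive zymogens. SPINK1 is a small inhibitor of the Kazal type that acinar cells package and secrete together with trypsinogen, and it blocks trypsin that becomes active inside the gland too early. In humans, changes in the trypsinogen gene PRSS1 and in SPINK1 are known causes of, or risks for, pancreatitis.

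In GRCm38 coordinates, the trypsinogen genes lie together on mouse chromosome 6. Try4 spans chr6:41302269-41305532 on the plus strand, Try5 chr6:41311233-41316841 on the minus strand, Try10 chr6:41354105-41357914 on the plus strand and Prss3 chr6:41373814-41377678 on the minus strand. Prss1 follows at chr6:41458932-41463786 and Prss2 at chr6:41521787-41525079, both on the plus strand. Spink1 lies at chr18:43728082-43737557 on the minus strand. All 7 are annotated as protein coding, and no other annotated gene overlaps any of them. Between and beside the trypsinogens lie 7 further trypsinogen-like rows that do not carry a trypsinogen symbol. Of these, 2210010C04Rik, Gm5771, Gm10334, Gm2663, 1810009J06Rik and Gm4744 are annotated as protein coding and Gm5409 as an unprocessed pseudogene.

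Copies within this cluster resemble each other, and that bears on how reads can be assigned. Of the 50-base windows in the annotated transcripts of Prss3, 66.1% also occur in another gene, and 65.1% occur in Gm10334. For Prss1 the share is 54.9%, with Gm5771 as the closest gene at 38.9%. Try4 shares 65.6% of its windows, most of them with Try5 at 45.9%, Try5 shares 47.6% and Try10 40.8%. Prss2 shares 7.83% of its windows, and Spink1 shares 0.0%. The deposited values are RSEM expected counts, in which a read that matches several genes is divided among them by estimation, so the levels of Prss1, Prss3, Try4, Try5 and Try10 are less certain than those of Prss2 and Spink1.

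The sequence around the start of a gene shows how close some of these copies are. The RefSeq table of GRCm38.p6 holds 300 bases, 250 before and 50 after the start, for Prss1, Prss2, Prss3 and Try4 among the 7 genes, and for Gm5771, Gm10334, Gm2663 and 2210010C04Rik. Of these, 5 are shown, namely Prss2, the most abundant trypsinogen, and the pairs Prss3 with Gm10334 and Prss1 with Gm5771, whose levels are described together further on. They run 5′ to 3′ on the strand of the gene, over chr6:41521526-41521825 for Prss2, chr6:41377564-41377863 for Prss3, chr6:41446048-41446347 for Gm10334, chr6:41458680-41458979 for Prss1 and chr6:41392106-41392405 for Gm5771. Capitals mark the letters CACCTG and TGGGAA, the E-box and the TGGGAA box of sites for PTF1, the acinar transcription factor complex, and the letters TATAAA of a TATA box, each searched on both strands.
Prss2: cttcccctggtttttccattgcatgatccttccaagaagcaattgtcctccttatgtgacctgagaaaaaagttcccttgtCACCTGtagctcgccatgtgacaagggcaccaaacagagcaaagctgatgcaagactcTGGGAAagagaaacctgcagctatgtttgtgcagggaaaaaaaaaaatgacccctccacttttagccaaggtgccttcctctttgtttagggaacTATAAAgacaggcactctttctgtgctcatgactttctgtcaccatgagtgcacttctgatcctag
Prss3: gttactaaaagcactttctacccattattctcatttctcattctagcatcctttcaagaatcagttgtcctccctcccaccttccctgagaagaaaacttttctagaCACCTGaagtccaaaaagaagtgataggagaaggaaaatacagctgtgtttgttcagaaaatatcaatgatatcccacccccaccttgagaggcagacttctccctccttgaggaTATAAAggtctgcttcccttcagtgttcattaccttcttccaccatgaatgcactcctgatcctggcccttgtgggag
Gm10334: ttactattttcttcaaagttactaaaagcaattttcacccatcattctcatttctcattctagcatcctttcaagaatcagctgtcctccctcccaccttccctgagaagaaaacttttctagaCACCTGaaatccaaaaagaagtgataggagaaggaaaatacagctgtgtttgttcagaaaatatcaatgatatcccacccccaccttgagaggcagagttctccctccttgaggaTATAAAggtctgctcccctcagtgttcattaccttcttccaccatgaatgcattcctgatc
Prss1: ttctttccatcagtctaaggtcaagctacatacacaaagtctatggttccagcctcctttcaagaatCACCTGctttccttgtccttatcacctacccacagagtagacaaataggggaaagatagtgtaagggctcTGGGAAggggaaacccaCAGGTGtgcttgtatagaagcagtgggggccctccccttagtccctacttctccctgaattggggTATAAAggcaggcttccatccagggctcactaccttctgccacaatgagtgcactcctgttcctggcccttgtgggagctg
Gm5771: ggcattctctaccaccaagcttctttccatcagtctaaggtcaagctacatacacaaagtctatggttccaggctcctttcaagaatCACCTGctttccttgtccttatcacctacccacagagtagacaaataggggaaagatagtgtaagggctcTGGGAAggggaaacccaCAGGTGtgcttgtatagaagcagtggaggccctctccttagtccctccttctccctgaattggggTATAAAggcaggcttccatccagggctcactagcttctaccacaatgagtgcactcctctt

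In a global alignment of these windows, identical bases filled 86.4% of the columns for Prss3 and Gm10334, at 274 of 317. For Prss1 and Gm5771 they filled 85.3%, at 273 of 320. Columns with a gap were counted as not identical, so the share among aligned bases alone is higher. The next closest pair, Prss1 and Try4, reached 73.9%, and Prss2 was at most 57.5% identical to any of the others in the table. CACCTG and TATAAA occurred in all 8 windows. TGGGAA occurred in those of Prss1, Prss2, Gm5771, Gm2663 and 2210010C04Rik, and not in those of Prss3, Gm10334 and Try4. Among all 32851 promoter windows of the table, 20.2% held CACCTG, 25.6% TGGGAA, 13.6% TATAAA and 0.639% all 3. No match overlapped a match to another motif. A match of letters is a description of the window and does not show a site.

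Sequencing depth was 31325562 to 62390463 expected counts per mouse. The labelled tissue showed its acinar markers, the enzyme genes Amy2a5, Cpa1, Cela1, Pnlip, Ctrb1 and Cel, which together stood at 274621 to 335129 CPM in the 24 mice. CPM is the count of a gene as a share of its library, scaled to a common library total. Markers of other cells were low beside this, with a summed 206 to 536 CPM for 6 islet hormone genes, 37.7 to 60.8 CPM for 6 ductal genes and 123 to 227 CPM for 5 stellate genes. The sum of 7 lymphocyte genes varied most, from 0.878 CPM to 105 CPM in disrupted early female 1. The lymphocyte markers Cd3e and Cd3g did not pass the filter.

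Per kilobase of exon, 3 trypsinogens stood far above the others. Prss2 was highest with 30824 ± 2733 CPM per kb (SD, 24 mice), followed by Try4 with 27343 ± 5509 CPM per kb and Try5 with 14396 ± 4560 CPM per kb. Try4 exceeded Try5 in 24 of 24 mice, whereas Prss2 exceeded Try4 in 18 of 24, so the order of the upper pair was not the same in every mouse. Prss3 averaged 746 ± 1107 CPM per kb, an SD larger than the mean, and ranged from 186 to 4486. Spink1 stood at 501 ± 63.7 CPM per kb and Try10 at 223 ± 49.5 CPM per kb. Spink1 was above Try10 in 24 of 24 mice and below Prss3 in 5 of 24. Prss1 was the least abundant of the 7 with 11.5 ± 17.3 CPM per kb and a range of 3.44 to 90.5. Of the neighbouring rows, 2210010C04Rik reached 12606 ± 929 CPM per kb over an exon union of 2142 bases, long beside the 729 to 902 bases of the 7 genes. It was close to Try5, which exceeded it in 13 of 24 mice, and above Prss2 in 0 of 24. With no correction for length it was at 25983 ± 2203 CPM in early females and 28944 ± 1843 CPM in early males. Prss2 was at 22434 ± 1590 CPM and 27450 ± 429 CPM in those mice. The row shares 0.0% of its windows with other genes and is not part of the trypsinogen sum.

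The trypsinogen sum, the 6 genes added on the CPM scale, ran from 47018 CPM in normal circadian early female 3 through a median of 58397 CPM to 87037 CPM in normal circadian early male 2. In each mouse this was 4.98% to 8.23% of all expected counts, and 7.68% to 11.0% with the 7 neighbouring rows added. Prss2 supplied 31.8% to 49.4% of the sum, Try4 26.9% to 43.0% and Try5 15.4% to 27.9%. Prss3 supplied 0.231% to 4.24%, Try10 0.208% to 0.465% and Prss1 at most 0.0837%. The ratio of the trypsinogen sum to Spink1 was 137 to 198 counts per Spink1 count, with a mean of 167 ± 16.7 (SD, 24 mice). Counted per kilobase of exon the ratio was 121 to 174. With the 7 neighbouring rows added, counts per Spink1 count ran from 211 in normal circadian late female 1 to 282 in disrupted early female 3.

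**Figure D1:**
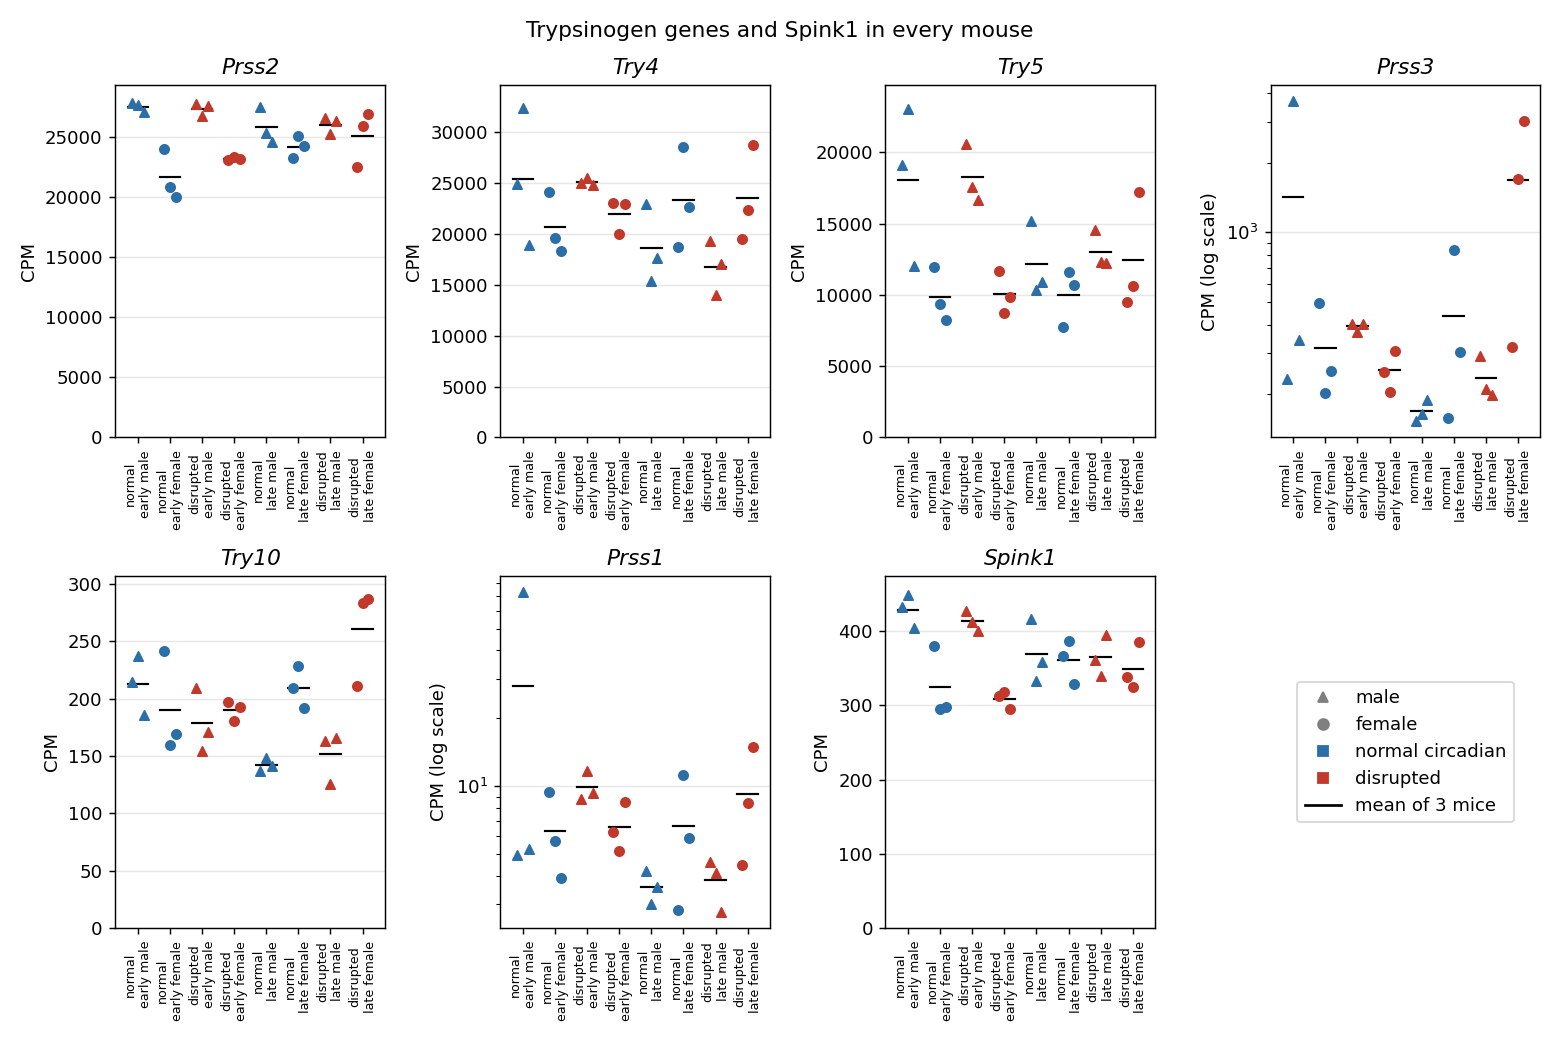
CPM of the 6 trypsinogen genes and Spink1 in each of the 24 mice, by group, with a line at the mean of 3 mice; Prss3 and Prss1 are on a log axis and the other axes start at 0. Early males lie above early females for Prss2, Try5 and Spink1, and a few mice stand far above the rest for Prss3 and Prss1.

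**Figure D2:**
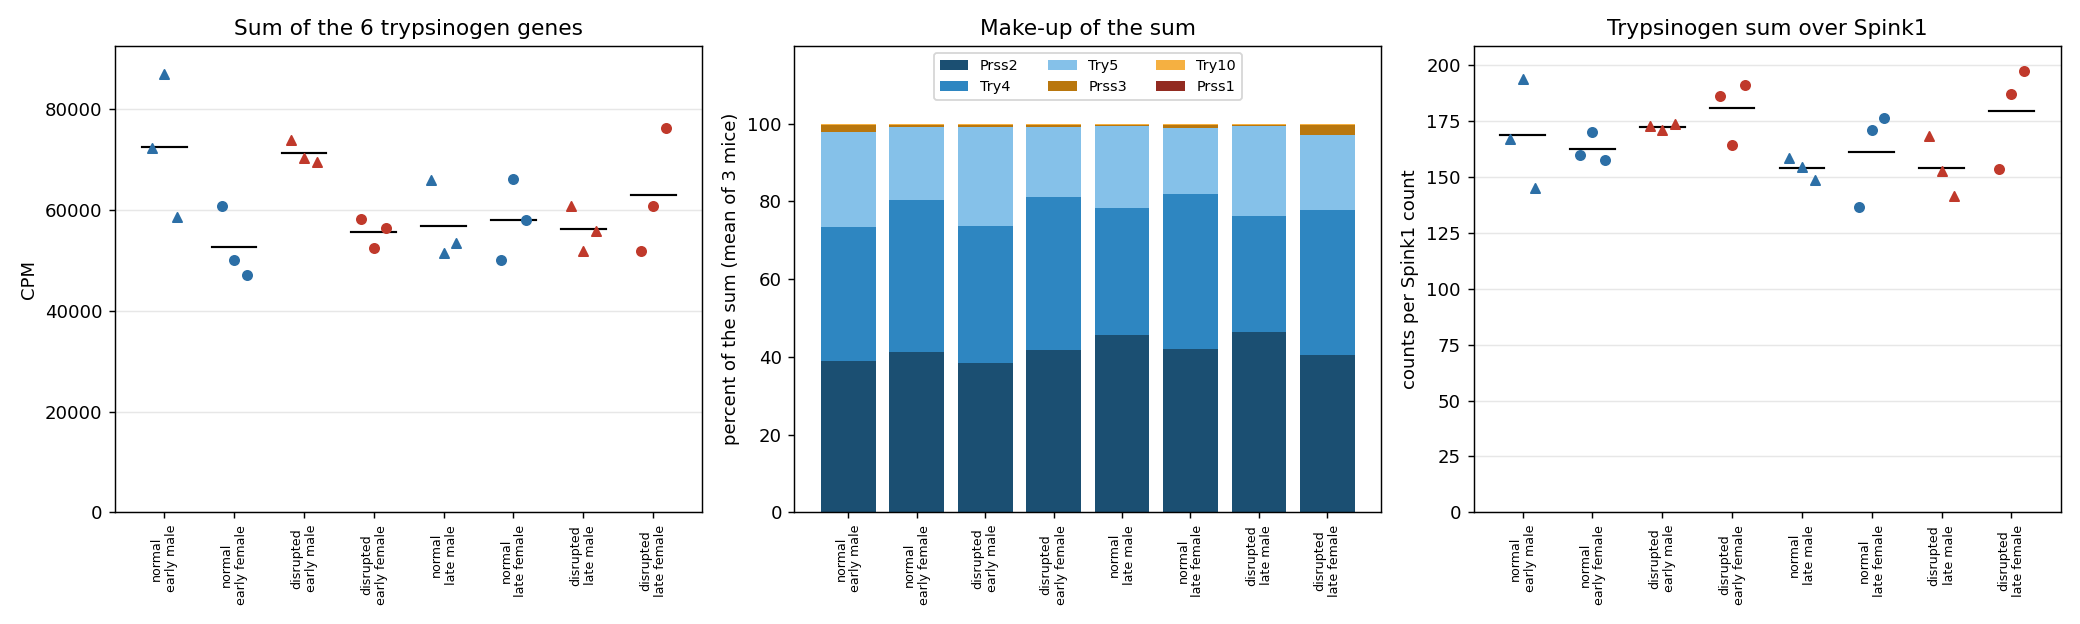
Left, the trypsinogen sum in CPM by mouse; middle, the mean share of each gene in the sum, in percent, by group; right, the ratio of the sum to Spink1 by mouse, with lines at means of 3 mice and colours and symbols as in the plot of each gene (blue normal circadian, red disrupted, triangles males, circles females). Prss2, Try4 and Try5 fill almost all of the sum in every group, and the ratio stays between 137 and 198.

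Whether circadian disruption altered the trypsinogen and inhibitor transcripts was asked first at the early time. Prss2 stood at 24594 ± 3498 CPM in normal circadian mice and 25290 ± 2298 CPM in disrupted mice (SD, 6 mice each), a log2 fold change of 0.05 ± 0.05 (SE). Spink1 stood at 376 ± 66.2 CPM and 361 ± 58.4 CPM, a log2 fold change of -0.06 ± 0.07. Try4 and Try5 had log2 fold changes of 0.03 ± 0.14 and 0.03 ± 0.18. For each of these 4 genes the normal circadian and the disrupted mice overlapped. In whole tissue, fewer cells of a type and less RNA per cell cannot be told apart. The adjusted p of edgeR's quasi-likelihood test over all 14000 genes was 0.697 for Prss2, 0.699 for Spink1, 0.936 for Try4 and 0.961 for Try5.

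Of the 7 genes, 0 passed the threshold of 0.05 on that adjusted p at the early time, where 4.56% of all genes tested did. The count was also 0 with DESeq2 and at an unadjusted p under 0.05. Prss3 had the largest early fold change, -1.08 ± 0.62 on the log2 scale with an adjusted p of 0.391. Its lowest, median and highest values were 203, 296 and 3688 CPM in normal circadian mice and 205, 339 and 404 CPM in disrupted mice. The difference rested on normal circadian early male 2, and without that mouse it was 0.07 with an adjusted p of 0.967. Prss1 behaved alike, at -0.71 ± 0.56 with all mice and 0.51 without that one. Try10 stood at 201 ± 34.9 CPM and 184 ± 19.9 CPM, a log2 fold change of -0.13 ± 0.11.

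Condition made no call at the late time either. Again 0 of the 7 genes passed, with edgeR, with DESeq2 and at an unadjusted p under 0.05, beside 1.35% of all genes with edgeR. Prss2 differed by 0.03 ± 0.05, Try4 by -0.07 ± 0.14, Try5 by 0.21 ± 0.18 and Spink1 by -0.03 ± 0.07 on the log2 scale. Their adjusted p values in edgeR's fit were 0.81, 0.87, 0.634 and 0.883. Prss3 was at 153, 177 and 838 CPM (lowest, median and highest) in late normal circadian mice and at 199, 306 and 3034 CPM in late disrupted mice, and the conditions overlapped. Its log2 fold change was 1.22 ± 0.62 (adjusted p = 0.381). Try10 was at 176 ± 38.8 CPM and 206 ± 66.9 CPM, and the log2 fold change was 0.20 ± 0.11 (adjusted p = 0.398). Prss1 had one of 0.30 ± 0.61 (adjusted p = 0.872).

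The condition effect was not shown to change between the times for any of the 7 genes. The late effect minus the early effect passed for 0 of them, with edgeR and with DESeq2, against 4.77% of all genes with edgeR. At an unadjusted p under 0.05 there were 2, Prss3 with a difference of 2.30 ± 0.88 (adjusted p = 0.167) and Try10 with 0.33 ± 0.15 (adjusted p = 0.262). Spink1 gave 0.03 ± 0.10 and Prss2 -0.01 ± 0.07. Leaving out normal circadian early male 2 took the Prss3 difference to 1.15. Males and females did not differ in the condition effect for any of the 7 genes in edgeR's test at the early time, where 0% of genes passed, 783 had an unadjusted p under 0.05 and DESeq2 called 0. The same count of 0 was found at the late time, where 0.0286% of genes passed. At an unadjusted p under 0.05, and with DESeq2, the count among the 7 genes was 0 at both times as well.

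In normal circadian mice, time alone gave 0 calls among the 7 genes with edgeR and with DESeq2, beside 0.843% of all genes with edgeR. Prss1, at 17.0 ± 27.4 CPM early and 5.12 ± 3.17 CPM late, had the only unadjusted p under 0.05, with a log2 fold change of -1.43 ± 0.59 and an adjusted p of 0.295. The early mean holds the 72.9 CPM of normal circadian early male 2, and without that mouse the log2 fold change was -0.22. Prss3 gave -1.31 ± 0.62 (adjusted p = 0.37), and -0.16 without the same mouse, and Try10 gave -0.22 ± 0.11 (adjusted p = 0.38). Late against early disrupted mice gave 0 calls with edgeR, with DESeq2 and at an unadjusted p under 0.05, although 13.9% of all genes passed in edgeR's test. Spink1 differed by 0.00 ± 0.07 there (adjusted p = 0.995), at 361 ± 58.4 CPM early and 357 ± 28.2 CPM late. Prss2 gave 0.02 ± 0.05, Try4 -0.24 ± 0.14, Try5 -0.09 ± 0.18, Try10 0.11 ± 0.11, Prss3 0.99 ± 0.62 and Prss1 -0.43 ± 0.58.

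The sum and the ratio were followed over the same comparisons as descriptions, without a test. At the early time the trypsinogen sum was 62650 ± 14878 CPM in normal circadian and 63493 ± 8867 CPM in disrupted mice (SD, 6 mice each). At the late time it was 57525 ± 7161 CPM and 59621 ± 9055 CPM, and in both cases the difference was smaller than the SD of either group. The ratio to Spink1 was 166 ± 16.4 in normal circadian and 177 ± 10.1 in disrupted early mice, and 158 ± 14.6 and 167 ± 21.8 in the late ones. The conditions overlapped in the ratio at both times.

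**Figure D3:**
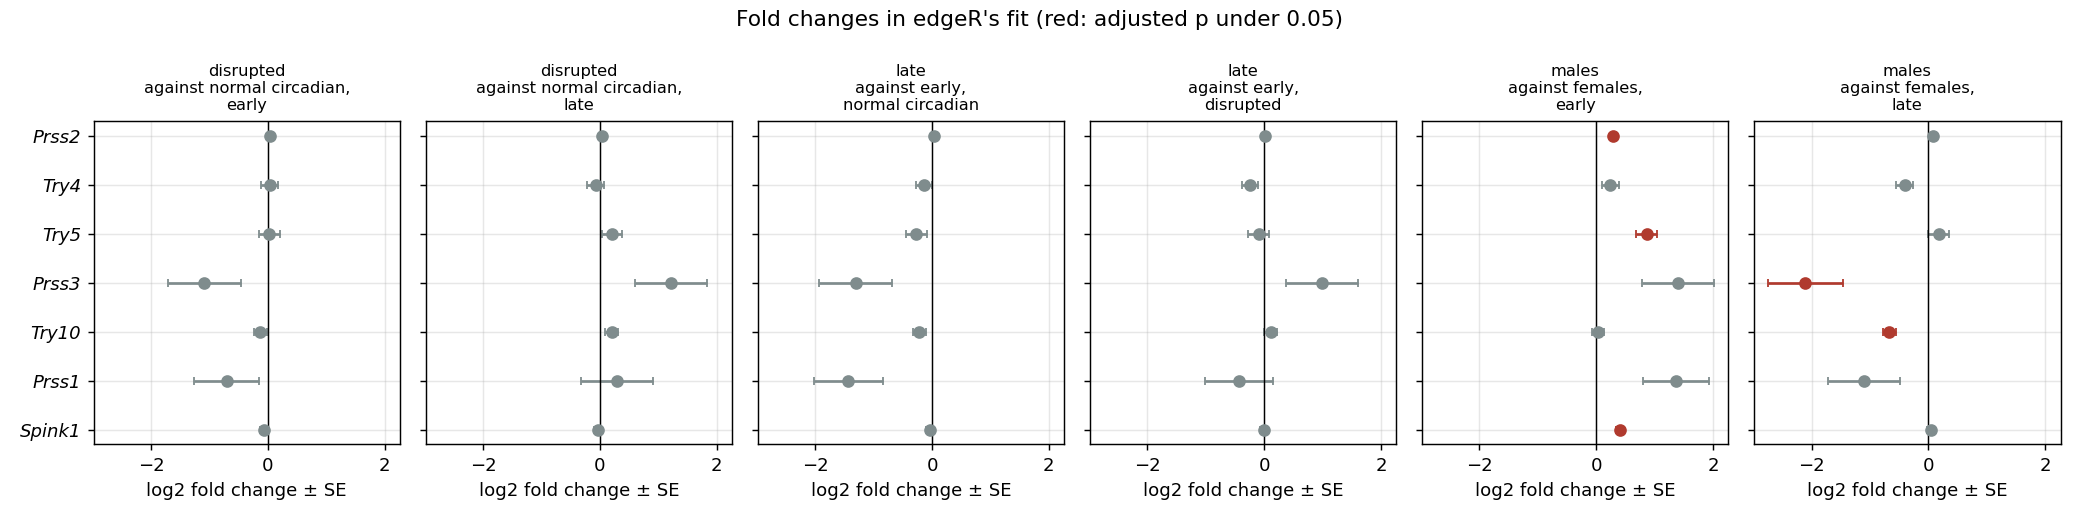
Log2 fold change with its standard error for each gene in 6 comparisons of edgeR's fit, with calls at an adjusted p under 0.05 in red. The calls lie in the comparisons of the sexes, and the standard errors are widest for Prss3 and Prss1.

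Males and females differed at the early time in 3 of the 7 genes, Prss2, Try5 and Spink1, all higher in males. Among all genes tested, 0.893% passed in this comparison and 0.4% passed with higher values in males. Prss2 stood at 20040, 23154 and 24048 CPM (lowest, median and highest) in 6 early females and at 26756, 27634 and 27838 CPM in 6 early males. Every male was above every female, and the log2 fold change was 0.29 ± 0.05 (SE; adjusted p = 0.0028 in edgeR's quasi-likelihood test). The difference held within each condition: normal circadian males had 27536 ± 393 CPM and females 21652 ± 2116 CPM, and disrupted males had 27365 ± 533 CPM and females 23216 ± 112 CPM (SD, 3 mice each).

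Spink1, the inhibitor, was at 294, 305 and 380 CPM in early females and at 400, 419 and 449 CPM in early males, again without overlap. The log2 fold change was 0.41 ± 0.07 with an adjusted p of 0.00182. In normal circadian mice the values were 428 ± 22.7 CPM in males and 324 ± 48.6 CPM in females, and in disrupted mice 413 ± 13.5 CPM and 309 ± 12.3 CPM. Both Prss2 and Spink1 passed in all 24 fits that left out 1 mouse each.

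Try5 was at 8225, 9591 and 11956 CPM in early females and at 12011, 18347 and 23019 CPM in early males. The highest female, normal circadian early female 1, lay just below the lowest male, normal circadian early male 3. The log2 fold change of 0.87 ± 0.18 had an adjusted p of 0.0298. It missed the threshold in 7 of the 24 fits without 1 mouse, with adjusted p up to 0.0964, namely without normal circadian early male 1 or 2, normal circadian early female 2 or 3, disrupted early male 1 or 2, or disrupted early female 2. As Try5 shares windows with Try4, its own level is the less certain of the 3.

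Try4 was at 18329, 21444 and 24117 CPM in early females and at 18928, 24883 and 32344 CPM in early males, with 5 of 6 males above every female. Its log2 fold change was 0.24 ± 0.14 (adjusted p = 0.415 in edgeR's test). Try10 differed by 0.03 ± 0.11, Prss1 by 1.36 ± 0.57 and Prss3 by 1.40 ± 0.62, and none of them passed, with adjusted p values of 0.92, 0.254 and 0.285. Without normal circadian early male 2, Prss1 differed by 0.14 and Prss3 by 0.25. The trypsinogen sum was 54189 ± 5227 CPM in early females and 71954 ± 9149 CPM in early males, with 5 of 6 males above every female. The ratio of the sum to Spink1 was 172 ± 14.0 in early females and 171 ± 15.7 in early males (SD, 6 mice each), a difference far below the SD.

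In early males the acinar markers were also higher, at 307335 to 335129 CPM summed over the 6 genes, against 274621 to 313944 CPM in early females. Their median log2 fold change was 0.13, beside 0.0035 over all genes, and of the 6 markers 0 were called with edgeR, 1 with DESeq2, and 5 had an unadjusted p under 0.05. Relative to this sum in the same mouse, the mean log2 difference of males from females was 0.15 for Prss2, 0.27 for Spink1 and 0.71 for Try5, and the sexes overlapped in each. The markers of other cells moved both ways. The 7 lymphocyte genes summed to 10.7 to 105 CPM in early females and 3.93 to 14.9 CPM in early males, the 5 stellate genes to 167 to 227 CPM and 145 to 194 CPM, the 4 macrophage genes to 27.7 to 70.6 CPM and 25.3 to 32.5 CPM, and the 6 islet genes to 304 to 428 CPM and 252 to 393 CPM, each with the higher median in females. The ductal sum was 44.1 to 57.5 CPM in early females and 41.1 to 57.4 CPM in early males, also with the higher median in females. The higher median was in early males for the 4 endothelial genes (32.8 to 40.7 CPM in females, 31.96 to 43.0 CPM in males), the 6 adipocyte genes (13.02 to 58.8 CPM and 10.9 to 19.8 CPM) and the 3 liver genes (7.86 to 13.4 CPM and 7.10 to 38.0 CPM). For the adipocyte genes this depended on the summary. Their summed medians were close, at 15.8 CPM in females and 16.9 CPM in males, while the median log2 fold change over the 6 genes was -1.25, lower in males. Over the endothelial genes it was -0.0036. The part of tissue make-up in the sex difference was not tested. Without scaling of the libraries the median over all genes moved by -0.13 on the log2 scale, and the differences were 0.16 for Prss2, 0.28 for Spink1 and 0.73 for Try5, each still called, with adjusted p values of 0.0141, 0.00975 and 0.0271.

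**Figure D4:**
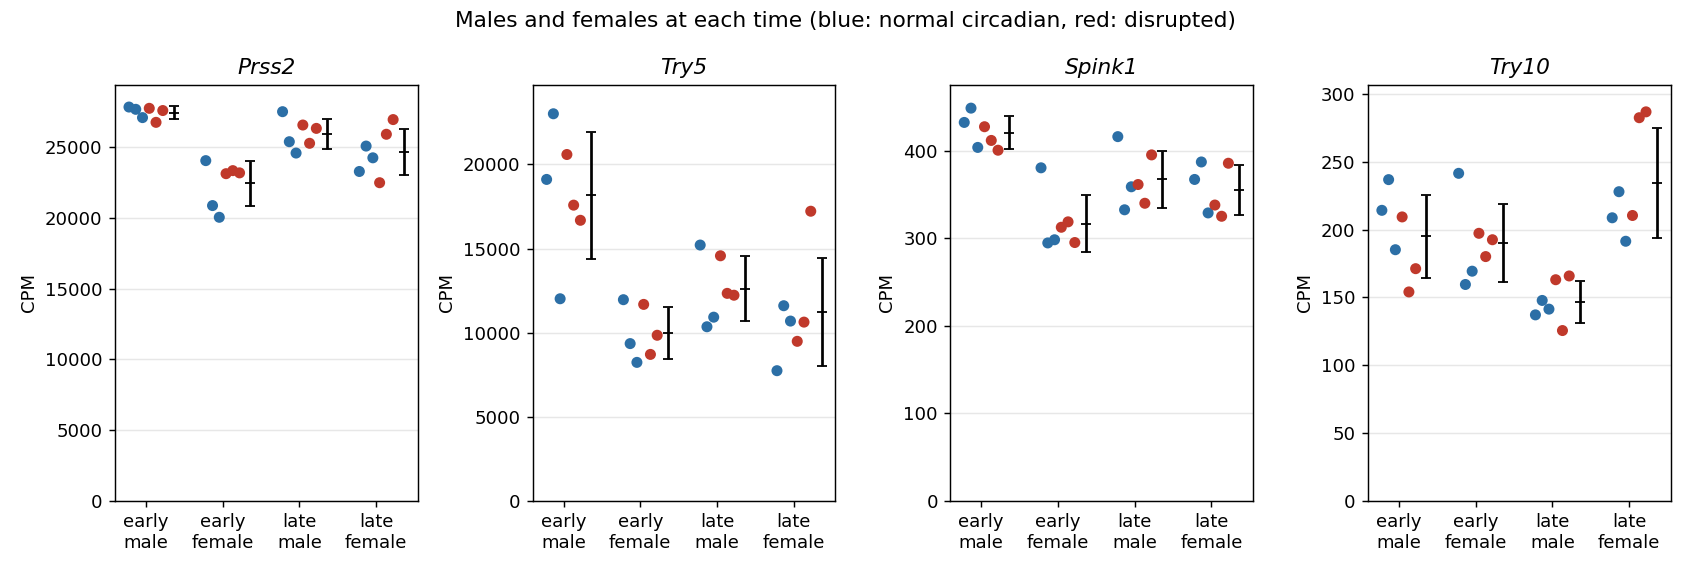
CPM of Prss2, Try5, Spink1 and Try10 in males and females at each time, with 1 point per mouse (blue normal circadian, red disrupted) and the mean with its SD over 6 mice to the right of each arm; axes start at 0. The sexes do not overlap for Prss2, Try5 and Spink1 early, nor for Try10 late.

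At the late time, where females were of day 8 and males of day 9, none of the 3 genes called early passed. Prss2 was at 22486, 24663 and 26952 CPM in late females and at 24584, 25858 and 27511 CPM in late males, a log2 fold change of 0.07 ± 0.05 (adjusted p = 0.411). Spink1 was at 325, 352 and 387 CPM in late females and at 332, 360 and 416 CPM in late males, a log2 fold change of 0.05 ± 0.07 (adjusted p = 0.733). Try5 gave 0.17 ± 0.18 (adjusted p = 0.62). For all 3 genes the late sexes overlapped. Try4, at 23379 ± 4319 CPM in late females and 17692 ± 3148 CPM in late males, gave -0.40 ± 0.14 (adjusted p = 0.0893), and Prss1 gave -1.10 ± 0.61 (adjusted p = 0.308). The trypsinogen sum was 60563 ± 9666 CPM in late females and 56583 ± 5742 CPM in late males, and the ratio was 170 ± 22.3 and 154 ± 9.07.

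Instead Try10, one of the scarce trypsinogens, was lower in late males. It stood at 192, 219 and 287 CPM in late females and at 126, 145 and 166 CPM in late males, so that every late male was below every late female. The log2 fold change of -0.67 ± 0.11 had an adjusted p of 0.00063 and passed in all 24 fits without 1 mouse. Normal circadian late mice had 210 ± 18.3 CPM in females and 142 ± 5.37 CPM in males, and disrupted ones 260 ± 43.0 CPM and 152 ± 22.5 CPM (SD, 3 mice each). Relative to the acinar marker sum the mean log2 difference was -0.61, also without overlap. Markers of other cells moved beside it. The stellate genes summed to 123 to 156 CPM in late females and 149 to 200 CPM in late males, with Dcn called higher, the macrophage genes to 15.8 to 29.7 CPM and 19.9 to 42.9 CPM, and the adipocyte genes to 6.34 to 19.1 CPM and 7.32 to 36.1 CPM. Gcg of the islet list and Kdr of the endothelial list were called lower in late males, and the acinar sum was 291956 to 325449 CPM in late females and 278956 to 308040 CPM in late males. The part of tissue make-up in the Try10 difference was not tested. Prss3 was the other of 2 calls among the 7 genes, in a comparison where 9.37% of all genes passed and 3.88% passed with lower values in males. It was at 158, 579 and 3034 CPM in late females and at 153, 194 and 293 CPM in late males, with overlap. Its log2 fold change of -2.11 ± 0.64 (adjusted p = 0.0484) passed in 5 of the 24 fits without 1 mouse, those without normal circadian early male 1, 2 or 3, normal circadian late female 1 or disrupted late female 1. Without normal circadian late female 2 it was -1.65 with an adjusted p of 0.129.

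The change of the sex difference from early to late passed for 3 of the 7 genes, beside 3.69% of all genes, and 1.59% in the direction of a lower late difference. It was -0.70 ± 0.15 for Try10 (adjusted p = 0.0172), -0.36 ± 0.10 for Spink1 (adjusted p = 0.0331) and -3.50 ± 0.89 for Prss3 (adjusted p = 0.0391). For Prss2 it was -0.22 ± 0.07 (adjusted p = 0.0811), for Try4 -0.65 ± 0.20 (adjusted p = 0.0826) and for Try5 -0.69 ± 0.25 (adjusted p = 0.139). Try10 passed in all 24 fits without 1 mouse, Spink1 in 10 and Prss3 in 5. Without scaling the Spink1 difference was -0.22 with an adjusted p of 0.0947, while the median of all genes moved by 0.14. These late comparisons were added after the data were seen, and the part of the day of sampling in them cannot be told apart from that of sex.

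Prss3 was set apart by a few mice with very high values. It reached 3688 CPM in normal circadian early male 2, 3034 CPM in disrupted late female 3, 1704 CPM in disrupted late female 2 and 838 CPM in normal circadian late female 2. In the other 20 mice it lay between 153 and 493 CPM. The 4 mice come from 3 groups, of both sexes, conditions and times, so neither sex, condition nor time alone separates them from the others. They were not spread evenly, as 3 of them are late females and the other is an early male.

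The neighbouring rows Gm10334 and Gm5771 were high in the same mice. Gm10334 stood at 1186, 841, 488 and 227 CPM in these 4 mice, in the order just given, and at 46.0 to 148 CPM in the other 20. Gm5771 stood at 1875, 1522, 647 and 309 CPM and at 17.4 to 113 CPM in the other 20. Both rows therefore followed the order of Prss3 in these mice. Prss1 was at 72.9, 14.95, 8.40 and 11.2 CPM in them, against 2.77 to 11.7 CPM in the other 20, so that only 2 of the 4 stood above all other mice. Prss3 shares 65.1% of its windows with Gm10334, and Prss1 shares 38.9% with Gm5771, and how many of these genes were high in their own right was not tested. Try10 was at 237 CPM in normal circadian early male 2 and at 287 CPM in disrupted late female 3, its highest value. Spink1 was at 449 CPM in the first of these, the highest of all mice, and at 386 CPM in the second.

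**Figure D5:**
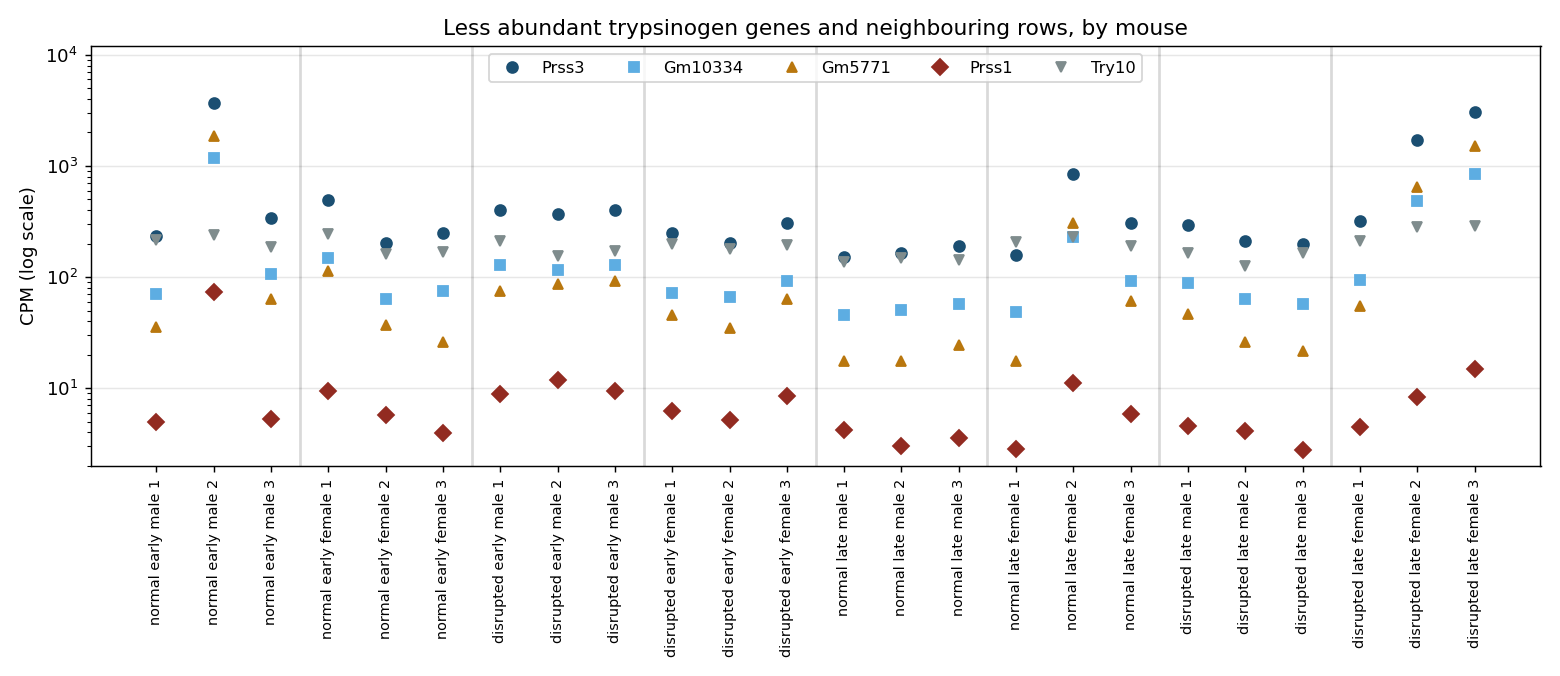
CPM on a log axis of Prss3, Gm10334, Gm5771, Prss1 and Try10 in each mouse, in the order of the groups, with vertical lines between groups. Prss3, Gm10334 and Gm5771 are high together in 4 mice, while Try10 varies between 126 and 287 CPM.

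Similarity of levels over the 24 mice was described by Pearson's r of log2 CPM, without a test, since the mice share groups, libraries and depth. Spink1 followed Prss2 (r = 0.83, Spearman's rho = 0.86) and Try5 (r = 0.80), which ranked 2 and 5 among all other genes tested. Its similarity to Try4 was lower (r = 0.47), as was that to Prss3 (r = 0.30) and Try10 (r = 0.15). The 5 genes outside the 7 that were most like Spink1 were Rpl22l1 (r = 0.84), Spcs1, a subunit of the signal peptidase of the endoplasmic reticulum (r = 0.82), Selenof, a selenoprotein of the endoplasmic reticulum (r = 0.81), Prdx1, a peroxiredoxin (r = 0.80), and Ghitm, a protein of the inner mitochondrial membrane (r = 0.79). Most like the trypsinogen sum were Tmem64 (r = 0.83), Ctrb1, a chymotrypsinogen (r = 0.82), Tc2n (r = 0.81), Cela3b, a pancreatic elastase (r = 0.81), and Ptcd3, a protein of the mitochondrial ribosome (r = 0.79).

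Other genes of pancreatic proteases were called mainly between the sexes. The list held 11 such genes, all tested, which were digestive zymogens and the kallikrein gene Klk1. Of these, 0 passed between the conditions at either time with edgeR or DESeq2. At an unadjusted p under 0.05 there was 1 at the early time and 0 at the late time. In early males 2 of the 11 were higher with edgeR, where 0.893% of all genes passed, and 4 of the 11 passed with DESeq2. At an unadjusted p under 0.05 there were 9 of the 11, against 2253 of all 14000 genes, with a median log2 fold change over the 11 of 0.14 beside 0.0035 over all genes. The 2 that edgeR called were Ctrc and Cela3b, and DESeq2 called Cpa1 and Klk1 besides them. Ctrc, chymotrypsin C, which degrades trypsinogen in humans, was at 158 ± 18.2 CPM in early females and 198 ± 26.7 CPM in early males (log2 fold change 0.33 ± 0.08, adjusted p = 0.0366 with edgeR). Cela3b was at 13618 ± 1090 CPM and 16466 ± 940 CPM (0.28 ± 0.06, adjusted p = 0.025 with edgeR). Among the 7 neighbouring rows, edgeR called Gm4744 higher in early males, at 0.239 ± 0.107 CPM in females and 1.06 ± 0.634 CPM in males (adjusted p = 0.0104). DESeq2 called Gm2663 and 1810009J06Rik besides it. With edgeR 6 of the 7 had an unadjusted p under 0.05, and the median log2 fold change over the 7 was 2.01. Ctrc also fell from early to late disrupted mice, from 191 ± 23.6 CPM to 151 ± 14.2 CPM (log2 fold change -0.34 ± 0.08, adjusted p = 0.0045). Cela3a was lower in late males than in late females, at 4.51 ± 0.898 CPM against 9.92 ± 3.12 CPM (adjusted p = 0.0027), and so was Gm5771, at 25.8 ± 11.0 CPM against 435 ± 583 CPM (adjusted p = 0.0281). The change of the sex difference from early to late passed for Gm5771, Gm10334 and Gm4744, and for Cela3b and Cpa1, all downward.

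Among activators and other inhibitors of trypsin, most calls fell on scarce transcripts. Tmprss15, which encodes enteropeptidase, did not pass the filter on low counts, and neither did any of 11 other Kazal inhibitor genes, so Spink1 was the only member of the Spink family tested. The cathepsin genes Ctsb, Ctsl and Ctsd, whose products act on trypsinogen in lysosomes, passed in 0 of the comparisons with edgeR. At an unadjusted p under 0.05 there were Ctsl and Ctsd for the early condition effect and for its change to late, and Ctsb and Ctsl for late against early disrupted mice. DESeq2 called Ctsd between the early conditions, where its log2 fold change with edgeR was 0.11 ± 0.04 (adjusted p = 0.134). From early to late disrupted mice DESeq2 called Ctsl, which with edgeR was at a log2 fold change of 0.15 ± 0.05 (adjusted p = 0.0566). Of 12 other protease inhibitor genes tested, 3 were higher in early disrupted mice, where 4.56% of all genes passed, with a median log2 fold change over the 12 of 0.08 beside 0.0043 over all genes. These were Serpina1b, Serpina1e and Pzp, plasma protease inhibitors known from the liver, and their levels were very low, with a median of 0.379 CPM for Serpina1b, 0.277 CPM for Serpina1e and 0.206 CPM for Pzp in disrupted mice and at most 0.0551 CPM in any early normal circadian mouse. Alb, which encodes albumin and marks liver, was higher in the same comparison, at 0.398 to 0.766 CPM in normal circadian and 0.809 to 27.5 CPM in disrupted mice, and the part of liver RNA in these calls was not tested. All 3 liver genes tested, Alb, Apoa1 and Ttr, summed to 7.10 to 11.7 CPM in early normal circadian mice and to 8.64 to 38.0 CPM in early disrupted mice. In the normal circadian mice Alb was at most 0.766 CPM, so most of their sum came from Apoa1 and Ttr. The median log2 fold change over the 3 was 3.23, and edgeR called Alb alone. From early to late, Serpina1b, Serpina1c, Serpina1e and Pzp fell in disrupted mice, and Serpina1c and Serpina1e were at 0 in all 6 late disrupted mice. DESeq2 did not call Serpina1c there. Cst3, cystatin C, was higher in late males than in late females, at 107 ± 8.25 CPM against 94.8 ± 6.40 CPM (adjusted p = 0.0346), and Serping1 passed for the change of the sex difference, upward.

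A few receptor and transcription factor genes of acinar cells passed between the conditions at the early time. Of 8 receptor genes tested, 1 passed in early disrupted mice with edgeR and with DESeq2, beside 4.56% of all genes with edgeR. This was Vipr1, a receptor for vasoactive intestinal peptide. It fell from 12.4 ± 1.23 CPM to 9.78 ± 1.39 CPM (log2 fold change -0.34 ± 0.08, adjusted p = 0.0102 with edgeR). Its late effect was higher than its early one by 0.43 ± 0.11 (adjusted p = 0.0221), and it rose with time in disrupted mice by 0.26 ± 0.08 (adjusted p = 0.0275). In these comparisons 4.77% and 13.9% of all genes passed. Chrm3, the muscarinic receptor through which acetylcholine stimulates secretion, rose with time in normal circadian mice from 5.76 ± 0.455 CPM to 7.84 ± 0.523 CPM (adjusted p = 0.0144). It was 1 of the 8 there, beside 0.843% of all genes. Cckbr, a gastrin and cholecystokinin receptor, was lower in late males, at 0.335 ± 0.0858 CPM against 0.591 ± 0.142 CPM in late females (adjusted p = 0.0455). DESeq2 did not call it, and 1 of the 8 is near the 9.37% of all genes that passed there with edgeR.

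Of 9 acinar transcription factor genes, all tested, 2 rose in early disrupted mice with edgeR, where 4.56% of all genes passed, and 3 passed with DESeq2. The median over the 9 was -0.0081 on the log2 scale. Ptf1a, the acinar subunit of PTF1, was at 5.86, 8.02 and 9.33 CPM (lowest, median and highest) in early normal circadian mice and at 7.21, 11.7 and 14.9 CPM in early disrupted mice, with overlap. Its log2 fold change was 0.55 ± 0.13 (adjusted p = 0.0169). Gata4 rose from 19.8 ± 1.06 CPM to 24.3 ± 2.31 CPM (0.29 ± 0.08, adjusted p = 0.0351). From early to late disrupted mice 3 of the 9 rose and 2 fell, in a comparison where 13.9% of all genes passed. Bhlha15, which encodes the secretory cell factor MIST1, rose from 185 ± 20.7 CPM to 275 ± 48.8 CPM (0.56 ± 0.12, adjusted p = 0.00443), Nr5a2 by 0.37 ± 0.10 (adjusted p = 0.0118) and Xbp1, a factor of the unfolded protein response, by 0.18 ± 0.06 (adjusted p = 0.033). Gata4 fell by 0.39 ± 0.08 (adjusted p = 0.00168) and Foxa2 by 0.47 ± 0.15 (adjusted p = 0.034) on the same scale. Xbp1 was also higher in late males than in late females, at 234 ± 7.86 CPM against 195 ± 6.57 CPM (adjusted p = 0.00303).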

How the data were processed

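RNA of whole pancreas from 24 mice was sequenced, with 3 mice in each of 8 groups taken from the titles. A column kit and TruSeq libraries were used, per the labels' protocols. The authors deposited expected counts per gene, not normalized, and the submitters' processing notes name bcl2fastq 2.20, STAR 2.5.3a, RSEM, edgeR 3.28.0 and GRCm38.p5, with no order or role. The strand setting is not given in the sources used here.

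Identifiers were matched to GENCODE M21 of GRCm38 (51633 of 51912). Rounding of the expected counts altered 7.97% of values. Genes were filtered with filterByExpr, leaving 14000, and libraries scaled by TMM (0.943 to 1.12). Genes were tested by robust quasi-likelihood F-tests (edgeR 4.0.16, R 4.3.3) on means of the 8 groups, weighting the sexes equally, Benjamini-Hochberg adjustment over 14000 genes and a threshold of 0.05. The common biological coefficient of variation was 0.13. Similarity used log2(CPM + 0.5). Alternatives were other scaling, no filter, DESeq2 1.42.0, a replicate block, single sexes, and each mouse left out. The steps were tested on simulated data. Named were all 7 genes, called genes of the pathway lists, and the 5 genes most like the sum and Spink1. The genes and lists were chosen with earlier results of these data known. Nothing says how mice were housed or paired, so p-values cover the spread between these mice.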

Additional observations from a re-analysis of the deposited data

Results flagged for a closer look

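In each set of 6 mice of 1 condition or sex at 1 time, the highest and lowest values of the 7 genes, the sum and the ratio were checked for a mouse far from the rest, by the gap to the nearest mouse over the range of the set (critical value 0.625 for 6 mice). Of 72 sets, 9 stood out. About 3.6 would do so by chance for independent sets of normally distributed values. The sets share mice, and a few very high mice skew Prss3 and Prss1, so the 9 cannot be set directly against the 3.6. Prss3 was at 3688 CPM in normal circadian early male 2, next to 493 CPM in the nearest of its condition and 403.8 CPM in the nearest early male, and Prss1 was at 72.89 CPM in the same mouse, next to 9.39 CPM and 11.74 CPM. In normal circadian early female 1, Prss3 was at 493.0 CPM, next to 307.1 CPM in the nearest early female, and Spink1 at 380.3 CPM, next to 318.6 CPM. That Spink1 value was still below the lowest early male, at 400.5 CPM. Prss3 was at 837.6 CPM in normal circadian late female 2, next to 305.4 CPM, and Prss1 was at 11.17 CPM there, next to 5.921 CPM. The trypsinogen sum was 76210 CPM in disrupted late female 3, next to 60860 CPM. That mouse has the deepest library, with 62390463 expected counts, and the part of depth in its sum was not tested.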

How the results depend on the processing

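Of 1806 values of single genes in the planned comparisons under the alternatives, 7 lost a call, 1 gained one and 0 called values changed sign; 88 uncalled values did. The 7 lost calls were those of Try5 in early males, in fits without 1 mouse. The call gained was Try10 in males only, late against early normal circadian mice (-0.58, adjusted p = 0.0483), so that 1 of the 7 genes passed there. Of 208 values of the sum and ratio, 2 moved by more than 1 SD, both late against early disrupted mice. There the sum changed by -0.34 in males and 0.16 in females on the log2 scale, against -0.09 over both sexes. The sexes split alike in normal circadian mice, at -0.34 in males and 0.14 in females, against -0.1. Those values stayed within 1 SD, which was larger there, at 0.27 in place of 0.21. In the comparison of the late sexes, 1 gene in place of 2 passed without scaling, without a filter and with the replicate block, and 1 to 2 passed when each mouse was left out, as Prss3 had adjusted p values of 0.0522, 0.0794 and 0.0868. For the change of the sex difference, DESeq2 called 6 genes in place of 3 and leaving out each mouse gave 1 to 4. Prss3 missed the threshold there without a filter (0.0511) and with the block (0.0884). The cause was not tested in any of these.

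Replicate numbers were shared by the groups, and no source used here says that they pair the mice. Of 84 same-number pairs, 15 correlated above 0.1, with a range of -0.209 to 0.402. Their median was 0.00829, against -0.00697 for other numbers, and 12 of 24 mice correlated best with a mouse of their own number. Whether the numbers mark pairs or a batch was not tested. With the replicate block the early sexes gave 144 calls over all genes in place of 125.

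Counts over all genes moved by over 1.5 times in several settings. The early sexes had 125 calls, 258 with DESeq2, 301 without a filter and 794 without scaling. The late condition effect had 189 calls, 333 without a filter, 311 without the lymphocyte-rich disrupted early female 1 and disrupted late female 1, 42 in males and 23 in females. The early effect had 639 calls, 164 in males and 172 in females, and its change to late 668, 187 and 250. Time gave 118 calls in normal circadian mice, 249 with DESeq2, 211 without a filter, 240 in males and 0 in females, and 1948 in disrupted mice, 852 in males and 1084 in females. The sex difference of the late condition effect had 4 calls, 32 with DESeq2, 16 without a filter and 2 with the block, and the change of the sex difference 516 and 1060 without scaling. With 3 mice in a group, even large differences of Prss1 and Prss3 were poorly resolved. In edgeR's test, Prss3 missed the threshold at 2.30 ± 0.88 on the log2 scale for the change of the condition effect (adjusted p = 0.167). Prss1 missed it at -2.46 ± 0.83 for the change of the sex difference (adjusted p = 0.113). Prss3 passed at -2.11 ± 0.64 between the late sexes and at -3.50 ± 0.89 for the change of the sex difference.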
